A study of Mus musculus with 3 samples.

Results

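The genes described here encode enzymes and remodellers that write, read, erase or move chromatin marks: histone deacetylases, lysine acetyltransferases, lysine methyltransferases and demethylases, TET dioxygenases, bromodomain proteins, SWI/SNF and ISWI subunits, CHD helicases and ARID proteins. They were chosen by the start of their gene name (Hdac, Kdm, Kmt, Kat with a digit, Smarc, Chd with a digit, Brd, Setd, Arid, Tet with a digit) and not by a measured value. In all, 75 of the 8237 genes in the authors' tables were members: 73 of 8193 in beta cells, 1 of 186 in alpha cells and 2 of 231 in delta cells, with Chd4 in both the beta and the alpha table. Cells came from pancreatic islets of 3 mice, all NOD/ShiLtJ, 5 weeks old and given tamoxifen (10 mg per ml, injected into the peritoneum on 5 days). The control was 1 mouse with floxed alleles (IRE1αfl/fl) and the knockouts were 2 mice given as lacking IRE1α in beta cells (IRE1αβ-/-). The driver of the recombinase is not given in the sources used here. IRE1α is a sensor of unfolded protein in the endoplasmic reticulum.

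Chromatin state keeps a differentiated cell on its gene program. Acetyltransferases open chromatin and give bromodomain proteins a docking site, and deacetylases reverse this. Methyltransferases and demethylases set marks of active or silent genes, TET enzymes oxidise methylated cytosine, and SWI/SNF, ISWI and CHD machines move nucleosomes with ATP. In islet endocrine cells such factors are known to work with lineage transcription factors to hold hormone genes on and genes of other lineages off.

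The values are mean unique molecular identifiers (UMIs, 1 per captured transcript) per cell, over 829 control and 815 knockout beta cells. The knockout cells of both mice had been pooled. All cell numbers and UMI counts given here were inferred from the deposited means. A ratio is knockout over control, and the interval in brackets is its exact 95% interval, which covers counting error only. The tables hold only genes that the authors listed as different, with adjusted p up to 0.00998 in the authors' deposited table for beta cells, so a member with a ratio near 1 had little chance to appear. With 1 control mouse and pooled knockouts, beta-cell values carry no mouse-to-mouse error and were not tested. Genes were instead counted when they differed 1.5-fold or more. As a check of the cell label, Ins2 averaged 13373 UMIs per cell in the control and 9146 in the knockout. Ern1, the gene of IRE1α, had 0.509 and 0.742 UMIs per cell, so these values give no check of the knockout label.

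In beta cells 72 of the 73 members had more UMIs per knockout than per control cell, and Kdm3a alone had fewer; after centring on the median of all listed genes the split was 36 higher and 37 lower. Of all 8193 listed beta-cell genes 7780 (94.96%) had more, beside 98.6% of the members. The members together went from 29.7 to 42.6 UMIs per cell. The fold of 1.5 was reached by 34 of them (46.6%) as higher and by 1 as lower, beside 45.7% higher and 2.47% lower among all listed beta-cell genes. The median log2 ratio was 0.54 for the members and 0.54 for all listed genes, which is a ratio of 1.45 in both. The median of the family thus sat at the background of its table, and single genes and pairs of genes are given below against that shift. The quartiles of the log2 ratio were 0.40 and 0.71 for the members and 0.32 and 0.87 for all listed genes. After the centring, 5 members (6.85%) reached the fold as higher and 1 as lower, beside 16.0% and 4.19% of all listed genes.

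**Figure D1:**
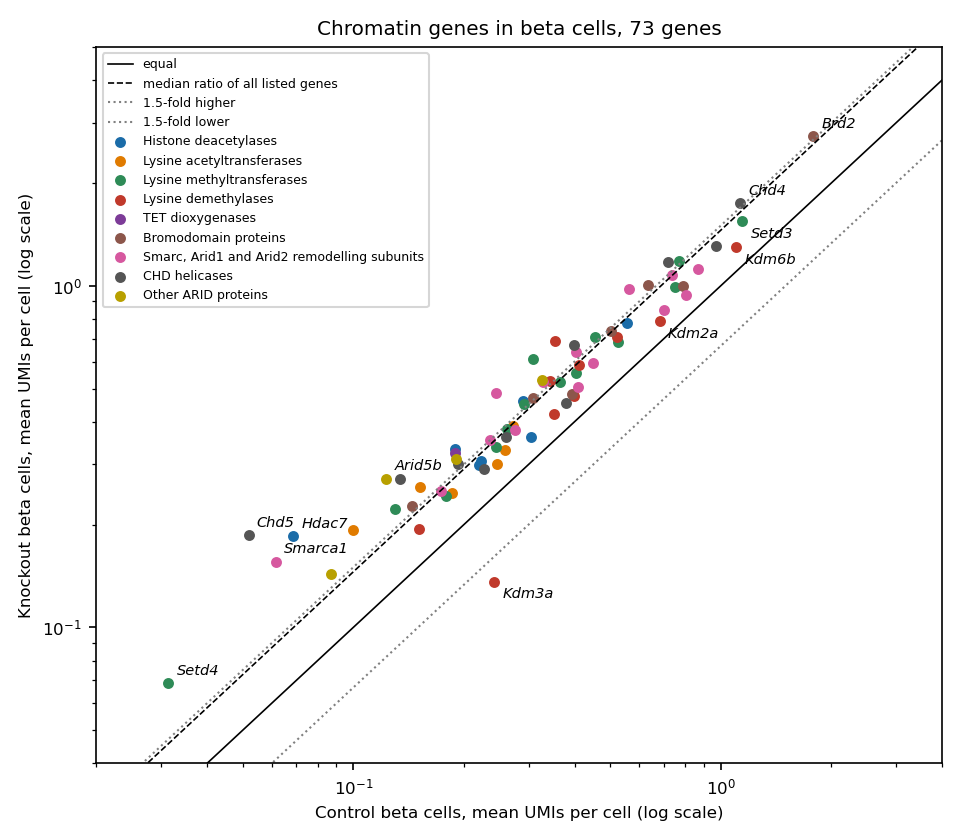
Mean UMIs per cell of 73 chromatin genes in control (x axis) and knockout (y axis) beta cells, on log scales, 1 point per gene and coloured by class; lines mark equal values, the median ratio of all listed genes (1.45) and a fold of 1.5 either way. All points but Kdm3a (0.241 and 0.136 UMIs per cell) lie above the line of equal values, and about as many lie above as below the median line (36 and 37).

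The scaling set how many members counted as higher. As a share of all listed UMIs the members went from 0.0941% to 0.172%, and as a share of listed UMIs without Ins1, Ins2 and Iapp from 0.312% to 0.373%. Scaled to the listed total without those 3 genes, 65 members (89.0%) were higher and 8 lower, beside 80.5% of all listed genes higher. Under that scaling 10 members (13.7%) reached the fold of 1.5 as higher, beside 25.7% of all listed genes. Kdm3a was lower under every scaling run. After centring, 36 of the 73 members were still higher, beside 4096 of all 8193 listed genes. The fold of 1.5 was reached as higher under each scaling by 5 members: Chd5, Hdac7, Smarca1, Arid5b and Setd4. After centring these were 6.85% of the members, beside 16.0% of all listed genes past the fold as higher. Setd4 fell short of the fold with a pseudocount of 0.0519.

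The counting interval left out a ratio of 1 for 72 of 73 members, the exception being Hdac3 at 1.18 [0.996 to 1.40]. It did so for 7423 of all 8193 listed genes. All of these had been listed as different in the same cells, so the count says little about the members. The interval left out the median ratio of all listed genes for 25 of 73 members, with 12 above that median and 13 below. Among all 8193 listed genes the same held for 4164, with 1896 above and 2268 below. The remaining members could not be told from the shift of the whole table at this depth. Each gene rested on few molecules: the member total was 24602 UMIs in control and 34734 in knockout cells, from 26 and 56 for Setd4 to 1481 and 2235 for Brd2.

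**Figure D2:**
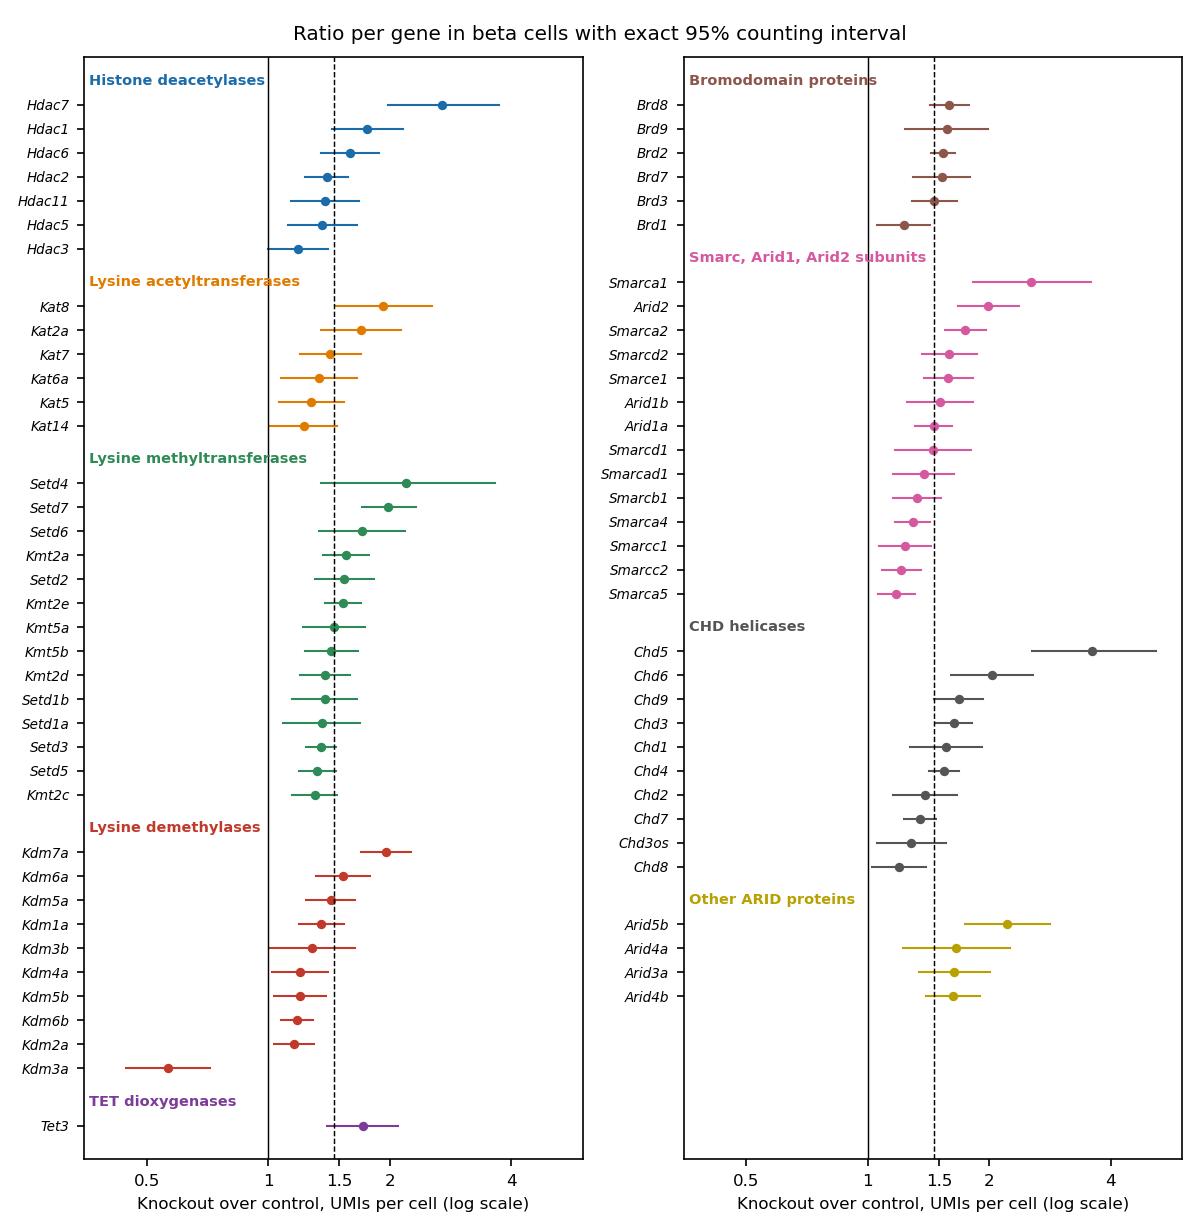
Ratio of knockout over control UMIs per cell (log scale) for 72 genes in beta cells, grouped by class, with exact 95% counting intervals; the solid line marks 1 and the dashed line the median of all listed genes (1.45). Chd5 (3.60) and Hdac7 (2.69) stand to the right, Kdm3a (0.565) alone stands left of 1, and 7 of the other 9 demethylases lie left of the dashed line.

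The counts per class below stand beside 94.96% of all listed genes higher and 45.7% past the fold as higher. The lysine demethylases, which take methyl groups off histones, had the lowest median of the classes. Their median log2 ratio was 0.31, or -0.23 relative to all listed genes, with 9 of 10 higher, 8 of 10 below the median of all listed genes and 2 of 10 past the fold as higher. Without Kdm3a the median of the other 9 was 0.36, or -0.18 relative to all listed genes. Kdm2a, a demethylase that binds CpG islands through its zinc finger, averaged 0.682 UMIs in control and 0.788 in knockout cells, at a ratio of 1.16 [1.03 to 1.30]. Kdm6b, an eraser of the Polycomb methyl mark, had 1.10 and 1.30, a ratio of 1.18 [1.08 to 1.29]. Its X-linked relative Kdm6a had 0.344 and 0.526, a ratio of 1.53 [1.32 to 1.78]. Kdm5b and Kdm4a stood at 1.20 [1.03 to 1.39] and 1.20 [1.02 to 1.41], and the intervals of Kdm2a, Kdm6b, Kdm5b and Kdm4a all ended below the median of all listed genes. At the other end Kdm7a, a demethylase with a PHD finger, went from 0.353 to 0.690 UMIs per cell, at a ratio of 1.95 [1.69 to 2.25].

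Kdm3a, a demethylase of the silencing mark on histone H3, was the single member with fewer UMIs in the knockout. The gene (ENSMUSG00000053470) lies on chromosome 6 of build mm10, 71588972 to 71632990. Control cells averaged 0.241 UMIs of Kdm3a and knockout cells 0.136, from 200 and 111 UMIs. The ratio was 0.565 [0.444 to 0.715], with 1.70% of all listed genes at a lower ratio. Its log2 ratio was -0.82, and it ranged from -1.37 after centring to -0.48 after scaling to the listed total. Kdm3b, its close relative, had 0.151 and 0.194 UMIs per cell, a ratio of 1.29 [1.01 to 1.64]. Kdm3a is known as a gene induced by hypoxia-inducible factor. Other genes known to be induced that way were also lower in the same cells: Bnip3 went from 2.17 to 0.778, Slc2a1 from 0.910 to 0.373 and Ldha from 0.490 to 0.0883 UMIs per cell. These 3 were picked after their values were seen, and their link to Kdm3a was not tested.

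Promoter windows are shown for the member that was lower, for Chd5 with the highest ratio, and for Chd4, listed in both the beta and the alpha table. They are RefSeq sequences of build GRCm38.p6, from 250 bases before to 50 after a start, written 5′ to 3′. Capitals mark ACGTG or GCGTG on either strand, the core letters to which hypoxia-inducible factor is known to bind.
Kdm3a, chr6:71632868-71633167, strand -: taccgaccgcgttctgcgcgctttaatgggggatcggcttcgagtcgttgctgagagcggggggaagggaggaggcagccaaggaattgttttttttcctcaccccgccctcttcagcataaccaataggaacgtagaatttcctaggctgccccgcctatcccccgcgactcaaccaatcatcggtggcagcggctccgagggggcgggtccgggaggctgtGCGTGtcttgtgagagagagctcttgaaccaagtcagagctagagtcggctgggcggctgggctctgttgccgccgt
Chd5, chr4:152338401-152338700, strand +: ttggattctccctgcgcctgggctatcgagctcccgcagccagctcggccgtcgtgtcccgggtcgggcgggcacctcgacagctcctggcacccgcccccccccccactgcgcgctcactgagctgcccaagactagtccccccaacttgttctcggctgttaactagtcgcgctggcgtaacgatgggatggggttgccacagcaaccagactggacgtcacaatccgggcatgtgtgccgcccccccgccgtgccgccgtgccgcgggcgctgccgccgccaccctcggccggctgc
Chd4, chr6:125095731-125096030, strand +: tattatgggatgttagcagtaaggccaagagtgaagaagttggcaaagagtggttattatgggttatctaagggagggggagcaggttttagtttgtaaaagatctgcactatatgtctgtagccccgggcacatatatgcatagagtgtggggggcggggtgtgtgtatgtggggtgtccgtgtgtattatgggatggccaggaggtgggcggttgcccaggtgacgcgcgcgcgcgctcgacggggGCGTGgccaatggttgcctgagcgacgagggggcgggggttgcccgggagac
The Kdm3a window holds 1 such match, the Chd4 window 1 and the Chd5 window 0. These letters are common: 14319 of all 32544 promoter windows (44.0%) hold at least 1 match, as do 31 of the 55 members with a window (56.4%). The longer motif TGACGTG, which XBP1 is known to bind, was in 2 of 55 members (3.64%) and 2.03% of all windows, searched on both strands and overlapping the first motif by its last 5 letters. The member windows were rich in CpG, with a median of 24 CpG pairs per window beside 7 over all windows, and their median GC content was 62.7% beside 53.0%. All windows include genes not listed in beta cells, and no value over listed genes alone was computed. The motifs contain a CpG themselves, and their shares were not matched for CpG content. A match is a description of letters and not a binding site.

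Histone deacetylases, which close chromatin by taking off acetyl groups, had a median log2 ratio of 0.48, or -0.06 relative to all listed genes, with 7 of 7 higher and 3 past the fold. Hdac7 (ENSMUSG00000022475, chromosome 15, 97792664 to 97844502), a class IIa deacetylase that shuttles between cytoplasm and nucleus, went from 0.0688 to 0.185 UMIs per cell, at a ratio of 2.69 [1.97 to 3.72]. Its exons overlap those of Slc48a1 on the other strand, and whether the counting used strand is not given in the sources used here. Hdac1, the catalytic subunit of several corepressor complexes, went from 0.189 to 0.333, a ratio of 1.76 [1.44 to 2.15]. Its partner paralogue Hdac2 had 0.557 and 0.777, a ratio of 1.39 [1.23 to 1.57]. Hdac6, which deacetylates tubulin in the cytoplasm, was at 1.59 [1.35 to 1.88], while Hdac11 and Hdac5 were at 1.38 and 1.36. Hdac3, the enzyme of the NCoR corepressor, was lowest of the class.

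Lysine acetyltransferases had a median log2 ratio of 0.46, or -0.08 relative to all listed genes, with 6 of 6 higher and 2 past the fold. Kat8, which acetylates histone H4, had 83 UMIs in control and 157 in knockout cells, a ratio of 1.92 [1.47 to 2.54]. Kat2a, the acetyltransferase of the SAGA complex, was at 1.70 [1.35 to 2.13]. Kat7 (1.42), Kat6a (1.33), Kat5 (1.28) and Kat14 (1.22 [1.01 to 1.48]) had intervals that included the median of all listed genes.

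Lysine methyltransferases add the methyl groups. All 14 were higher, 6 past the fold, with a median log2 ratio of 0.53, or -0.01 relative to all listed genes, and for 1 of 14 the interval left out the median of all listed genes. That gene was Setd7, long studied in beta cells as a partner of PDX1, which went from 0.309 to 0.612 UMIs per cell, at a ratio of 1.98 [1.70 to 2.31]. The trithorax-type genes Kmt2a, Kmt2c, Kmt2d, Setd1a and Setd1b, which mark promoters and enhancers of active genes, lay between 1.30 for Kmt2c and 1.56 for Kmt2a. Setd4 had the highest ratio of the class, 2.19 [1.35 to 3.63], from 0.0314 and 0.0687 UMIs per cell; its log2 ratio was 1.13, and 0.53 with a pseudocount of 0.0519. Setd2, which methylates histones along transcribed genes, was at 1.54 [1.31 to 1.82]. Setd3, which methylates actin and not a histone, had 950 and 1259 UMIs in all, a ratio of 1.35 [1.24 to 1.47]. The TET enzymes were measured through Tet3 alone, at 0.189 and 0.324 UMIs per cell, a ratio of 1.71 [1.40 to 2.10].

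The bromodomain proteins, readers of acetylated histones, had a median log2 ratio of 0.61, or 0.07 relative to all listed genes, with 7 of 7 higher and 4 past the fold. Brd8, a subunit of an acetyltransferase complex, had the highest ratio of the class, 1.59 [1.42 to 1.78], from 0.632 and 1.01 UMIs per cell. Brd2 and Brd3 are BET proteins, which bring elongation factors to acetylated chromatin. Brd2 went from 1.79 to 2.74 UMIs per cell, at a ratio of 1.54 [1.44 to 1.64], and Brd3 was at 1.46 [1.29 to 1.66]. The interval of Brd1 (1.23 [1.06 to 1.42]), a subunit of acetyltransferase complexes, ended below the median of all listed genes. Brd7 (1.52) and Brd9 (1.57), which belong to different forms of SWI/SNF, lay close to each other.

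The Smarc, Arid1 and Arid2 genes encode subunits of the SWI/SNF complexes and ATPases of related machines. All 14 were higher, 6 past the fold, with a median log2 ratio of 0.54, or -0.0019 relative to all listed genes. Smarca1 (ENSMUSG00000031099, X chromosome, 47809368 to 47892974), an ISWI ATPase, went from 0.0615 to 0.156 UMIs per cell, at a ratio of 2.53 [1.82 to 3.58]. The other ISWI ATPase, Smarca5, was the lowest of the group, from 0.802 to 0.942, a ratio of 1.17 [1.06 to 1.31]. Of the SWI/SNF ATPases, Smarca2 went from 0.562 to 0.980 (1.74 [1.55 to 1.96]) and Smarca4 from 0.867 to 1.12 (1.29 [1.17 to 1.42]). Arid2, the subunit of the PBAF form, went from 0.245 to 0.486, a ratio of 1.98 [1.67 to 2.36], whereas Arid1a and Arid1b of the BAF form were at 1.46 [1.31 to 1.62] and 1.51. The scaffold genes Smarcc1 (1.24) and Smarcc2 (1.21) and the ATPase genes Smarca4 and Smarca5 had intervals that ended below the median of all listed genes.

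CHD helicases slide or evict nucleosomes. Of the 10 rows with such a name all were higher and 6 reached the fold, with a median log2 ratio of 0.63, or 0.09 relative to all listed genes. Chd5 (ENSMUSG00000005045, chromosome 4, 152338651 to 152390194), a NuRD helicase known mainly from neurons, averaged 0.0519 UMIs in control and 0.187 in knockout cells, at a ratio of 3.60 [2.55 to 5.17] from 43 and 152 UMIs. This was the highest ratio of all members, and 94.4% of listed genes had a lower one. Its log2 ratio was 1.85, and 1.20 with a pseudocount of 0.0519 UMIs per cell. The NuRD helicases found more widely, Chd4 and Chd3, went from 1.13 to 1.75 (1.54 [1.42 to 1.68]) and from 0.720 to 1.18 (1.63 [1.47 to 1.81]). Chd6 was at 2.03 [1.61 to 2.57], Chd9 at 1.68 [1.46 to 1.93], Chd7 at 1.35 [1.23 to 1.48] and Chd8 at 1.19 [1.03 to 1.39]. The row named Chd3os is no helicase gene: its identifier (ENSMUSG00000043419, chromosome 11, 69340461 to 69342641) is Rnf227, a RING finger protein gene next to Chd3, in GENCODE M21. It had 0.227 and 0.291 UMIs per cell, and without it the class median was 0.64.

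The other ARID proteins, which bind DNA through the same kind of domain, were higher in 4 of 4 cases, all past the fold, with a median log2 ratio of 0.72, or 0.18 relative to all listed genes. Arid5b, a cofactor of a histone demethylase, went from 0.123 to 0.272 UMIs per cell, at a ratio of 2.21 [1.74 to 2.83]. Arid4a, Arid3a and Arid4b lay within 1.62 to 1.65. Of all listed genes, 93.9% were past the fold as higher under 0.1 UMIs per control cell, where Arid4a lay. From 0.1 to 0.3, where Arid5b and Arid3a lay, it was 50.9%, and from 0.3 to 1, where Arid4b lay, 24.3%.

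Ratios in this table were larger for genes with few UMIs, and a rare gene needs a larger ratio to be listed. The 5 members under 0.1 UMIs per control cell (Arid4a, Chd5, Hdac7, Setd4 and Smarca1) had a median ratio of 2.53, beside 2.37 for the 1868 listed genes of that range. In log2 terms the 29 members from 0.1 to 0.3 were at 0.54 beside 0.59. As ratios, the 35 members from 0.3 to 1 were at 1.39 beside 1.32. The 4 members of 1 and over (Brd2, Chd4, Kdm6b and Setd3) were at 1.44 beside 1.17 for 1438 listed genes. Across the 73 members Spearman's rho between control level and log2 ratio was -0.44, beside -0.71 across all listed genes; both axes share the control value, and genes are not replicates. Member genes were long, with a median longest transcript of 5864 bases beside 3088 for all listed genes, and length had little relation to the ratio among members (rho 0.01).

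**Figure D3:**
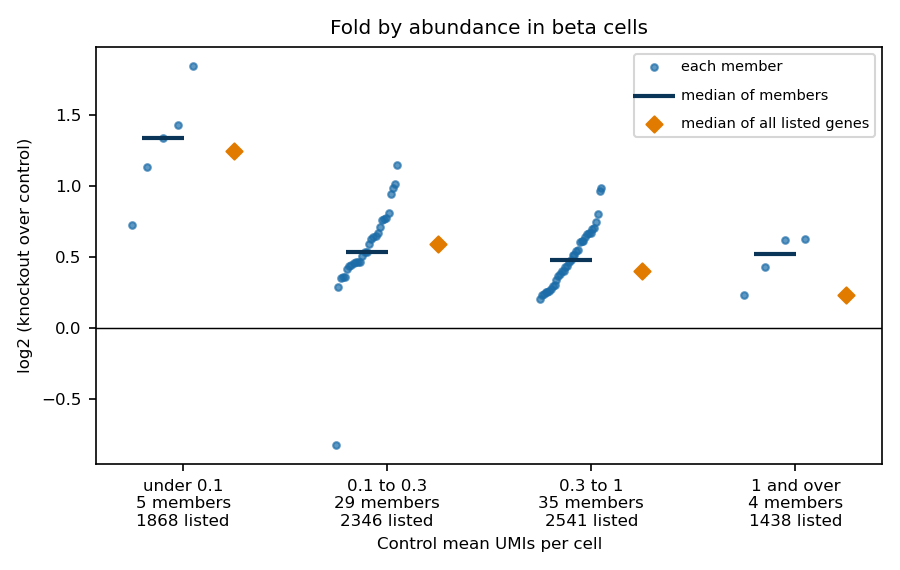
Log2 ratio of knockout over control (y axis) by range of control mean UMIs per cell (x axis) in beta cells, with each member as a point, the members' median as a bar and the median of all listed genes in that range as a diamond. The members' median is 1.34 under 0.1 and 0.52 at 1 and over, where that of all listed genes is 0.23.

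Related genes that can take the same place in a complex, or do the same reaction, were compared as shares of their summed UMIs, which no scaling between the groups can alter. In 9 of 19 such pairs the exact 95% binomial intervals of control and knockout did not overlap. In 8 of those 9 the partner that was rarer in control gained share, and in 1 the commoner partner did. No share over pairs of other listed genes was computed beside this count. The 19 pairs were drawn up with the values known, and the intervals cover counting error only. Smarca2 made up 39.3% [36.5 to 42.2] of the Smarca2 and Smarca4 UMIs in control and 46.7% [44.3 to 49.1] in knockout cells. Smarca1 went from 7.12% [5.35 to 9.26] to 14.2% [12.0 to 16.6] of the ISWI pair. Arid2 went from 24.9% [22.0 to 28.1] to 31.2% [28.6 to 33.8] of the Arid2 and Arid1a UMIs.

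Among the enzymes, Kdm3a dropped from 61.5% [56.0 to 66.9] to 41.3% [35.3 to 47.4] of the Kdm3a and Kdm3b UMIs, so that Kdm3b held the larger share in the knockout. Hdac7 went from 23.8% [18.6 to 29.8] to 38.3% [33.5 to 43.3] of the Hdac7 and Hdac5 UMIs. Kdm6a went from 23.8% [21.4 to 26.3] to 28.9% [26.6 to 31.2] of the Kdm6a and Kdm6b UMIs. For the helicases, Chd5 went from 4.38% [3.19 to 5.86] to 9.65% [8.24 to 11.2] of the Chd5 and Chd4 UMIs, Chd6 from 12.1% to 17.2% beside Chd7 and Chd9 from 51.2% to 59.6% beside Chd8. Rarer genes had larger ratios across the whole table, as given above, and a pair of unequal partners carries that relation too.

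The other 10 pairs had overlapping intervals. They included the core subunits Smarcc1 and Smarcc2 (Smarcc1 36.8% in control and 37.3% in knockout), Arid1b and Arid1a (Arid1b 24.2% and 24.8%), Kmt2c and Kmt2d (Kmt2c 56.5% and 55.1%) and Setd1a and Setd1b (Setd1a 42.2% and 41.7%). Hdac1 held 157 of 619 UMIs of the Hdac1 and Hdac2 pair in control and 271 of 904 in knockout cells, a difference not resolved at this depth.

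**Figure D4:**
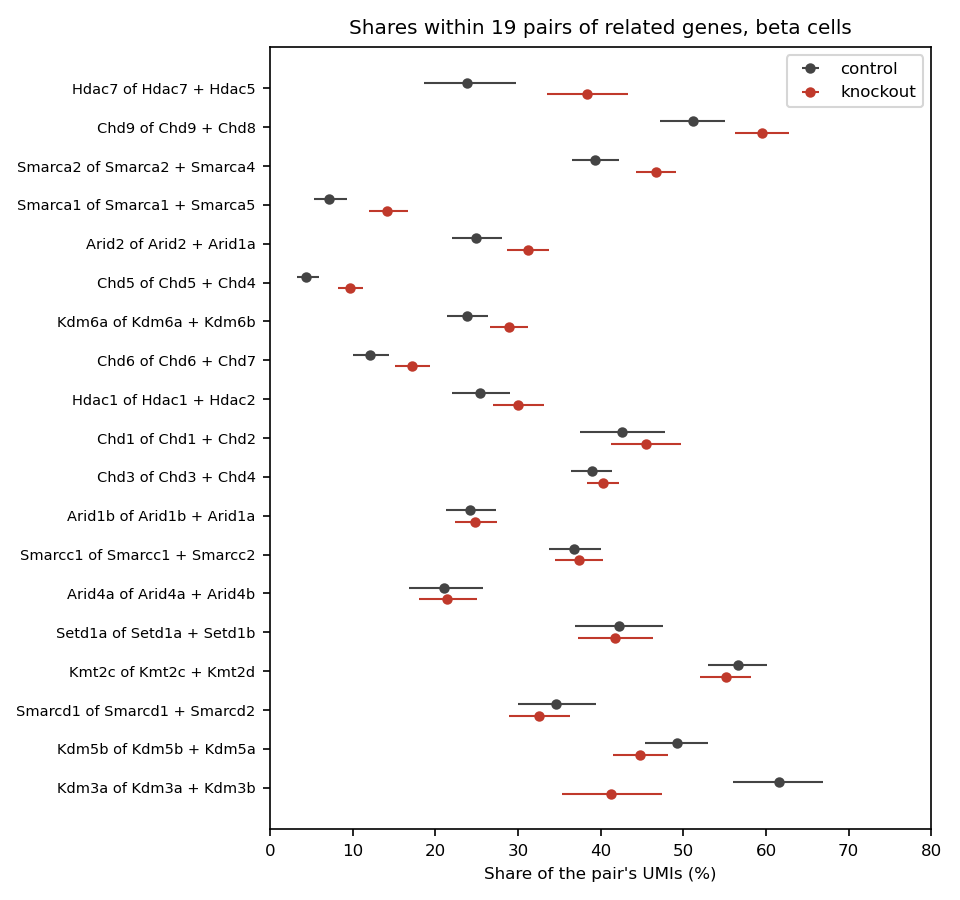
Share (%) that the first gene of each of 19 pairs holds in the pair's summed UMIs in control (grey) and knockout (red) beta cells, with exact 95% binomial intervals. Kdm3a, at the bottom, goes from 61.5% to 41.3%, Hdac7, at the top, from 23.8% to 38.3%, and the Smarcc, Arid1 and Setd1 pairs nearly coincide.

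Chromatin genes outside these name families, taken from 12 lists by function, gave a similar picture in beta cells. Of 134 listed genes 132 were higher, in a table where 94.96% of genes were, and 57 (42.5%) reached the fold as higher, beside 45.7% of all listed genes. Their median log2 ratio was 0.52, or -0.02 relative to all listed genes. Polycomb genes, which keep genes silent, were higher in 21 of 21 cases (median 0.63). Among them Ezh2, the Polycomb methyltransferase, went from 0.0495 to 0.102 UMIs per cell, at a ratio of 2.06 [1.40 to 3.07]. SWI/SNF partner genes were higher in 13 of 13 cases (median 0.59), INO80, SRCAP and ISWI genes in 15 of 16 (0.57) and corepressor genes in 15 of 16 (0.52). Partners of the COMPASS methyltransferases were higher in 9 of 9 cases (0.49), with 1 past the fold. Sirtuins were higher in 6 of 6 cases (0.64), arginine methyltransferases in 5 of 5 (0.46) and heterochromatin proteins in 6 of 6 (0.33).

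The acetyltransferases outside the Kat names were higher in 15 of 15 cases (median 0.49), with Crebbp at 1.66 [1.45 to 1.90] and its paralogue Ep300 at 1.27. The other methyltransferases were higher in 14 of 14 cases (0.54), with Ehmt2 at 1.72 [1.56 to 1.89], and the other demethylases in 2 of 2 (0.59). Genes of DNA methylation were higher in 11 of 11 cases (0.51), such as the methyltransferases Dnmt3a, from 0.566 to 0.890 UMIs per cell, and Dnmt3b, from 0.0470 to 0.112. The exceptions with fewer UMIs in the knockout were Znhit1 of the SRCAP complex at 0.900 [0.833 to 0.972] and the corepressor gene Tbl1x at 0.969 [0.874 to 1.07]. All these lists had medians from -0.21 (heterochromatin) to 0.10 (sirtuins) relative to all listed genes.

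Markers of other cells also differed in these beta cells, and their part in the values of the chromatin genes was not tested. All 4 listed alpha-cell markers of 6 (summed level 49.2 and 113.5 UMIs per cell) and 3 of 4 delta-cell markers (39.6 and 64.6) were listed and higher, as were both PP-cell markers (21.7 and 107.0). The mesenchyme list was at 0.00844 and 0.117 UMIs per cell for 4 of 4 genes, with Col1a1 and Dcn at 0 in control. Globins, 3 of 4 listed, went from 0.0639 to 22.6 UMIs per cell. For acinar cells 1 of 6 genes was listed, Reg3b, at 0 in control and 0.114 UMIs per knockout cell. Of duct genes 2 of 4 were listed (3.45 and 5.11), of endothelial genes 2 of 4 (0.192 and 0.363) and of immune genes 3 of 5 (0.586 and 0.415). Within these lists Pecam1 was higher (2.06) and Cdh5 lower (13 and 1 UMIs), while Cd68 was lower (339 and 47 UMIs) and Cd74 (1.96) and Lyz2 (1 and 10 UMIs) were higher. All 8 immediate early genes, which respond to tissue dissociation, were higher, from 12.2 to 31.3 UMIs per cell in sum. The 6 listed beta-cell markers of 7 were lower.

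In alpha cells Chd4 was the 1 member listed, and it was higher in both knockout mice. Chd4 (ENSMUSG00000063870, chromosome 6, 125095981 to 125130591) had 0.852 UMIs per cell in the control mouse (121 UMIs, 142 cells) and 1.16 and 1.37 in the knockout mice (353 UMIs in 304 cells, 242 UMIs in 177 cells). Both knockout values lay above the control. The mean of 1.26 ± 0.146 (SD, n = 2) was 1.48 times the control, below the fold of 1.5, which 10.8% of listed alpha-cell genes reached as higher and 30.1% as lower. The log2 ratio was 0.57, or 0.86 relative to the median of all listed alpha-cell genes, which was -0.29. The quasi-likelihood test of edgeR, run over mice, gave an adjusted p of 0.359 for Chd4. It called 0 of the 186 listed alpha-cell genes higher (0.0%) and 4 lower (2.15%); at an unadjusted p under 0.05 these were 5 and 47. That test borrows the spread of the single control from the knockout pair and runs on genes already selected in the same cells. In beta cells the ratio of Chd4 was 1.54, from the same mice. In the alpha table Ins2, a beta-cell marker, stood at 214 UMIs per control cell and at 160 and 151 in the knockout mice. Ins1, Iapp, Rbp4 and the PP-cell marker Ppy (427, 341 and 323) were also lower in both. Sst was lower in the first knockout column and higher in the second (36.8, 12.1 and 42.0). The immediate early gene Egr1 was higher in both (3.27, 4.94 and 3.99). The part of these genes in the Chd4 values was not tested.

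In delta cells Chd1l and Hdac9 were listed. Chd1l, a remodeller that acts in DNA repair (ENSMUSG00000028089, chromosome 3, 97560742 to 97610203), had 0.139 UMIs per cell in the control (14 UMIs in 101 cells) and 0.428 and 0.615 in the knockout mice (59 UMIs in 138 cells, 48 in 78 cells). The knockout mice lay 3.08-fold [1.70 to 5.98] and 4.44-fold [2.41 to 8.72] above the control. Both intervals use the same 14 control UMIs of 1 mouse. The gene had been listed as different in these same cells, so intervals above 1 say little. Their mean of 0.521 ± 0.133 (SD, n = 2) was 3.76 times the control, a log2 ratio of 1.91, or 1.49 relative to all listed delta-cell genes. The fold of 1.5 was reached by 41.1% of those genes as higher and by 16.0% as lower. By edgeR's quasi-likelihood test the adjusted p was 0.121 (unadjusted p from edgeR 0.0425), where 12.1% of listed genes were called higher and 9.52% lower.

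Hdac9, a class IIa deacetylase (ENSMUSG00000004698, chromosome 12, 34047580 to 34917095), had 15 UMIs in the first knockout column, 0.109 per cell, and 0 in the control and in the second knockout column. A count of 0 allows up to 0.0297 UMIs per cell in the control and 0.0385 in that knockout mouse, on a floor of 3 UMIs per library. With the control set to that floor, the first knockout mouse stood 3.66-fold higher. The exact 95% interval from the counts of 15 and 0 had 2.63 as its lower limit. The knockout mice did not share this higher level. The edgeR adjusted p was 0.505. Of the alpha-cell markers in the delta table, Gcg stood at 10.0 UMIs per control cell and at 159 and 63.5 in the knockout columns, Ttr was also higher in both and Gc lower. The beta-cell marker Iapp stood at 1825 UMIs per control cell and at 797 and 698, and the delta-cell marker Rbp4 at 137 and at 84.2 and 69.1. The 5 immediate early genes listed there were higher in both, such as Fos at 2.96, 5.88 and 6.88 UMIs per cell. The part of these genes in the values of Chd1l and Hdac9 was not tested. The defining hormone genes, Gcg in alpha and Sst in delta cells, were not analysed in their own tables, so those labels were not checked here.

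**Figure D5:**
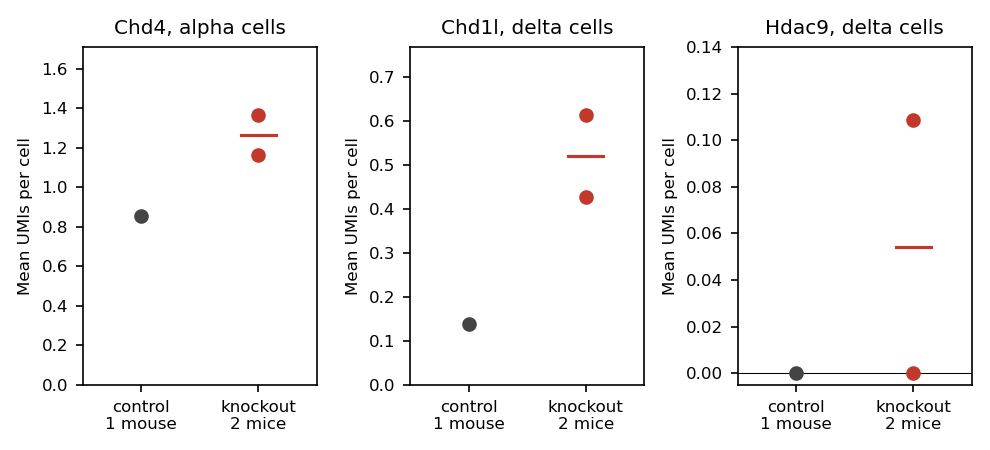
Mean UMIs per cell (y axes include 0) of Chd4 in alpha cells and of Chd1l and Hdac9 in delta cells, with 1 point per mouse and a bar at the mean of the 2 knockout mice. Chd4 and Chd1l lie above the control in both knockout mice, whereas Hdac9 is above 0 in 1 of them.

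The name families are larger than the tables show. GENCODE M21 annotates 100 protein-coding genes with such names, of which 72 were in the beta-cell table: 9 of 10 Chd names, 14 of 16 Smarc, Arid1 and Arid2 names, 14 of 18 methyltransferases, 10 of 18 demethylases, 7 of 11 deacetylases and 1 of 3 TET genes. The other 28, among them Tet1, Tet2, Hdac4, Setdb1 and Kdm2b, were not analysed in beta cells here. Exons of 31 of the 73 members overlap another annotated gene, 24 on the other strand and 9 on the same strand, some on both. Strand would tell reads apart in the former but not in the latter. Its use in counting is not given in the sources used here.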

How the data were processed

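Islets were digested with collagenase, picked by hand, cultured overnight, dissociated and profiled with the 10X Genomics system, per the labels' protocols. The submitters' processing notes list Cell Ranger 3.0.0 and mm10. For cell filters, cell typing, doublets and the authors' test, the method is not given in the sources used here. The authors deposited a signal per gene and column, the mean UMIs per cell, not scaled for depth. Cell numbers were inferred per column, as the number that turned the most means into whole UMIs. With it 99.9878% of genes or more were whole within 0.001, which is the criterion of that search and no separate check. UMI counts, exact intervals and edgeR offsets rest on these inferred numbers. Deposited p-values and q-values came from the authors and served only to describe the listing. In the alpha-cell table the p, q and gene name headers are shifted by 1 column, and columns were read by their content. The beta-cell column pools the knockout mice. The knockout columns of the alpha and delta tables were not matched to a particular mouse.

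Ratios used no pseudocount. Intervals are exact (Clopper-Pearson, 95%, scipy 1.17.1). EdgeR 4.0.16 (quasi-likelihood, log cell number as offset, Benjamini-Hochberg over all listed genes) was run on recovered UMIs of alpha and delta cells, and was tested on simulated data. Annotation was GENCODE M21, and promoters were matched by identifier or symbol for 55 of 75 members. Named in full were the 3 highest, the 3 lowest and the 3 most counted members and the ends of each class. Members, lists and pairs were chosen with earlier results of these data known. The edgeR p-values take their spread from the knockout pair and from the other listed genes, since 1 control mouse has none. Alternatives were other scalings, centring, a pseudocount of 0.0519, a minimum mean of 0.1, a fold of 2 and leaving out a knockout mouse. Leaving out Chd3os was added after seeing the data. For 1 member no values of its own are reported here, and it stays in the counts and medians.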

Additional observations from a re-analysis of the deposited data

How the results depend on the processing

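In beta cells the scaling moved every value by the same step and kept the order of the genes. Scaled to the listed total, 69 members were past the fold as higher and 0 as lower, with a median log2 ratio of 0.89 and class medians of 0.83 for deacetylases, 0.81 for acetyltransferases, 0.88 for methyltransferases, 0.66 for demethylases, 1.12 for Tet3, 0.96 for bromodomain proteins, 0.89 for Smarc, Arid1 and Arid2 subunits, 0.98 for CHD rows and 1.06 for other ARID proteins. Scaled to the same total less both insulin genes and Iapp, 10 were past the fold as higher, with a median of 0.27 and class medians of 0.21 for deacetylases, 0.19 for acetyltransferases, 0.26 for methyltransferases, 0.0445 for demethylases, 0.51 for Tet3, 0.34 for bromodomain proteins, 0.27 for Smarc, Arid1 and Arid2 subunits, 0.36 for CHD rows and 0.45 for other ARID proteins. Centred on the median of all listed genes, 5 were past the fold as higher, with a median of -0.0011 and class medians of -0.061 for deacetylases, -0.078 for acetyltransferases, -0.012 for methyltransferases, -0.23 for demethylases, 0.23 for Tet3, 0.067 for bromodomain proteins, -0.0019 for Smarc, Arid1 and Arid2 subunits, 0.092 for CHD rows and 0.18 for other ARID proteins. A fold of 2 was reached by 6 as higher (8.22%) and 0 as lower, beside 19.8% and 1.21% of all listed genes. At the fold of 1.5, scaling to the listed total put 94.5% of members past it as higher, beside 83.2% of all listed genes. Without both insulin genes and Iapp in the total these shares were 13.7% beside 25.7%, and after centring 6.85% beside 16.0%. With a pseudocount the higher count was 23 (31.5%, beside 26.5% of all listed genes) and with a minimum mean 33 (45.8%, beside 35.6%). Without Chd3os it was 34 (47.2%, beside 45.7%). These counts were all within 1.5 times the reported count. The pseudocount moved Chd5 from a log2 ratio of 1.85 to 1.20 and Setd4 from 1.13 to 0.53, short of the fold. No value past the fold changed sign under these alternatives. Leaving out a knockout mouse gave log2 ratios of 0.45 to 0.68 for Chd4 in alpha cells and 1.62 to 2.15 for Chd1l in delta cells; for Hdac9 only the mouse with UMIs gave a value. No paired analysis was possible because there was 1 control mouse and the columns carry no number shared with it. Few UMIs per gene limit all single ratios.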
